A study of Mus musculus with 18 samples.

Results

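Of 9 genes that give B cells, myeloid cells and red cell precursors their identity, 7 were named by at least 1 accessible region in cultured mouse CD4 T cells, and 6 were overlapped by one. Over all protein-coding genes 70.9% were named by a region and 67.7% overlapped, so these counts are near those of any gene. Cd79a counted only through regions that flank it. The genes are Pax5, Ebf1 and Cd79a (B cell), Spi1, Csf1r, Lyz2 and Cebpa (myeloid), and Gata1 and Klf1 (erythroid). Every distinct region of the authors' deposited table that named one of them was taken, whether it overlapped the gene or lay to its left or right. This gave 28 of the 65983 regions. The assay was ATAC-seq, where a transposase inserts sequencing adapters into DNA that proteins leave exposed. The 18 samples came from naive CD4 T cells stimulated through CD3 and CD28 in Th1-polarising medium with IL-2, IL-12 and an antibody against IL-4. They comprised Id3 knockout (Id3-KO) and wild-type (WT) Th1 cells at 24 h, Id3-KO and WT Tcmp cells at 72 h, and Id3-KO and WT Teff cells at 72 h, with 3 samples in each group. The labels Tcmp and Teff are used as given. The sources used here do not say how the Id3 allele was made, nor the strain and age of the mice, nor whether the 3 samples of a group were separate animals.

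The table holds 1 list of regions for all samples. Regions, widths, windows and gene entries were identical in all 6 contrasts, so a listed region is not tied to Id3-KO or to WT cells, nor to a time. The table gives no value per sample and no depth. Fold changes and p-values are not used for these genes, because of their order. In each of the 6 contrasts the region p-value was divided by the number of windows, to give the smallest window p-value. Down the table this value climbed without a fall (tolerance 1e-12 of the value). Regions with a p-value at its upper limit were left out of this order check. The best window was the leading window in 100% of regions. No difference between Id3-KO and WT cells is therefore reported at these loci. The gene entries did follow the regions, since 99.98% of 50850 overlap entries with a RefSeq symbol lay on that gene's chromosome.

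Blood lineages are kept apart by small sets of transcription factors that switch on the genes of 1 fate and restrain the others. Ebf1 and Pax5 start and fix the B cell programme together with E proteins, the factors that Id3 inhibits. Spi1 (which encodes PU.1) and Cebpa direct myeloid development, and Gata1 and Klf1 direct the erythroid one. Cd79a, a signalling chain of the B cell receptor, Csf1r, the receptor for the macrophage growth factor CSF1, and Lyz2, a lysozyme of macrophages and neutrophils, are genes that mature cells of those lineages use.

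All 6 transcription factor genes were overlapped by a region, and none of the other 3 genes was. The shares over all genes, 67.7% overlapped and 70.9% named, are of 21900 protein-coding genes, where a flank reaches at most 5000 bp, the largest distance listed. The division between factors and the other genes was seen after the counts were known and has no test. The regions were unevenly shared. Ebf1 had 10, Spi1 had 5, Pax5 and Cd79a had 4 each, Gata1 and Klf1 had 2 each, Cebpa had 1, and Csf1r and Lyz2 had none listed. A gene with no listed region may still be accessible below the level at which the authors listed windows, and that level is not stated in these sources. Whether a region was open in most T cells or came from a few other cells in the culture cannot be told apart in these bulk samples.

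**Figure D1:**
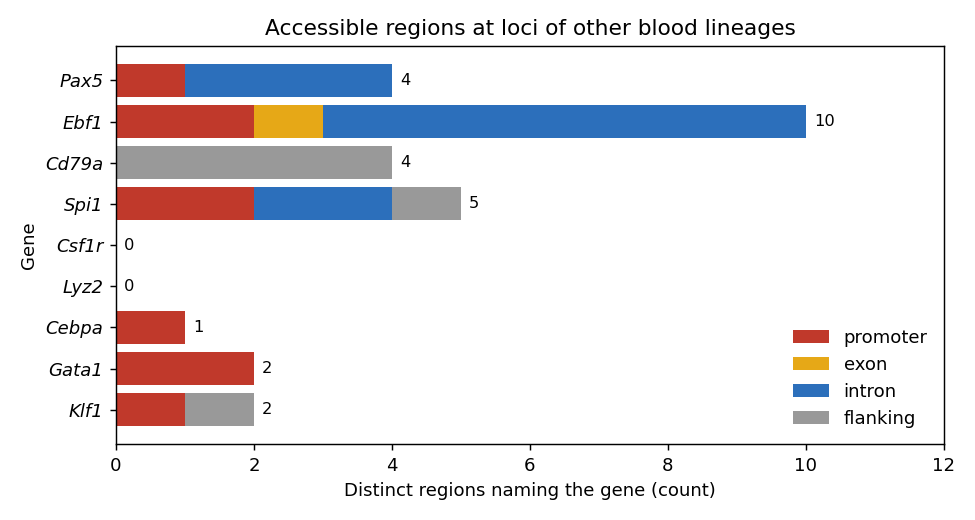
Distinct regions naming each of the 9 genes (x axis, count), split by class: promoter (class P, alone or with exon or intron), exon, intron and flanking. Ebf1 had 10 regions, of which 7 were in introns, while Csf1r and Lyz2 had none.

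The promoter sequences of 5 members are shown to let the genes with and without a region over them be compared by eye. Capitals mark CpG dinucleotides, which gather at promoters used in many tissues. Each sequence holds 250 bases before and 50 bases after a gene start, 5′ to 3′, from RefSeq on build GRCm38.p6, whereas the regions are on GRCm39. Whether a region covers these very bases was therefore not determined. Ebf1 and Cebpa had a region over their most 5′ listed exon, Klf1 had 1 over an inner exon, and Cd79a and Lyz2 had no overlapping region. For Ebf1 1 of 2 starts is shown (chr11:44617850-44618149, plus strand), for Cebpa chr7:35119043-35119342 (plus), for Klf1 chr8:84901732-84902031 (plus), for Cd79a chr7:24897247-24897546 (plus) and for Lyz2 chr10:117282223-117282522 (minus).
Cebpa: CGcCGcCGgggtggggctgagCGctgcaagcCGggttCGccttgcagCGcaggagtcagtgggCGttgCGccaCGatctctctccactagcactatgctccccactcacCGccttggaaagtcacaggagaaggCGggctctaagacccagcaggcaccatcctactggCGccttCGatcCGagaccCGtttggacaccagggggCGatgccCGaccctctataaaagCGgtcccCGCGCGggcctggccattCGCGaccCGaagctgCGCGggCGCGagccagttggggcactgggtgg
Ebf1: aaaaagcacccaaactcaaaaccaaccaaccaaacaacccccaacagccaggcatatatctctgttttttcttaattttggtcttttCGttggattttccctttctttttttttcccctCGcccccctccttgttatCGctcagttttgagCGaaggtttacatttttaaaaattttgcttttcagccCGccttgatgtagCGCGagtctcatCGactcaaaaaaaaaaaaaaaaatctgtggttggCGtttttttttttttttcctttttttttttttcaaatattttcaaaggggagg
Cd79a: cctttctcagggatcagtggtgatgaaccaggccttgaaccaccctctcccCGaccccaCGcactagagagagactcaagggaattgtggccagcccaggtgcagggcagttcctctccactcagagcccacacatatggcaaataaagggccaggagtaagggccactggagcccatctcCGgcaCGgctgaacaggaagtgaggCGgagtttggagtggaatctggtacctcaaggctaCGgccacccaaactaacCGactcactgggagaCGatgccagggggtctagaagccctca
Klf1: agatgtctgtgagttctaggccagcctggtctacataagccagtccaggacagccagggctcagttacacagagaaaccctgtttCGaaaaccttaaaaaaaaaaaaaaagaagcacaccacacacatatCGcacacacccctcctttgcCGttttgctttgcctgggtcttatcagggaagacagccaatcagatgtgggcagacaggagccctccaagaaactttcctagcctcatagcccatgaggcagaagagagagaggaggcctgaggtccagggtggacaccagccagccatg
Lyz2: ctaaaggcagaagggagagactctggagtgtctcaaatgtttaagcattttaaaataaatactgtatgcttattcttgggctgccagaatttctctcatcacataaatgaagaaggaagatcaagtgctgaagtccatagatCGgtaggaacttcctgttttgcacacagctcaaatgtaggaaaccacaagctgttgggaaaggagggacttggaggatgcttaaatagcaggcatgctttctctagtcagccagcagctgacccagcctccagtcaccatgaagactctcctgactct

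By class, 9 of the 28 regions carried the promoter label P, 12 lay in introns alone, 1 in an exon away from a promoter and 6 only flanked the member. P reached up to about 3000 bp before a start. Of 6716 entries with P alone and an exon of the gene listed downstream, 99.99% had that exon within this distance. How far P reaches past a start was not checked. At Spi1 a region labelled promoter and intron lay 233 bp past the most 5′ listed exon. Among all 53570 regions that named a gene, 42.8% had P for some gene, 40.2% were intronic, 8.13% exonic and 8.84% flanking. The member regions were classed for the member alone, with 32.1% P, 42.9% intronic, 3.57% exonic and 21.4% flanking. The 6 flanking regions were 4 at Cd79a and 1 each at Spi1 and Klf1, and 4 of the 6 overlapped a neighbouring gene.

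Member regions were of ordinary size. Their median width was 575 bp (range 300 to 800) against 550 bp over the table (300 to 1100). Their median number of windows, the overlapping steps in which reads were tested, was 6.5 (range 1 to 11) against 6 (1 to 16). Windows add little to width, since 97.8% of all regions had exactly the number that their width gives in steps of 50 bp. The 9 P regions had a median width of 600 bp, as did all regions with P, and the 12 intronic ones had 550 bp, as did all intronic regions. The widest of the 28, 800 bp with 11 windows, was not over a member but over the promoter and an exon of Dnase2a, a lysosomal DNase gene, 2977 bp past Klf1.

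Ebf1 carried the most regions of the 9, more than 96.6% of protein-coding genes. They spread over 391600 bp of chromosome 11. Region counts here and below were not adjusted for gene length. The first pair, chr11:44507701-44508350 (650 bp, 8 windows) and chr11:44509051-44509500 (450 bp, 4 windows), both overlapped the promoter and an exon, and no Ebf1 exon was listed to their left. Both also overlapped an unnamed gene on the opposite strand, ENSMUSG00000102563. Then came 7 intronic regions. Those at chr11:44572901-44573250, chr11:44785701-44786050 and chr11:44849901-44850250 were small, 350 bp and 2 windows each, and only 3.81% of all regions were narrower. The other 4 were 550 to 650 bp wide. Intronic regions came in close pairs at chr11:44783651-44784250 with chr11:44785701-44786050, 1450 bp apart, and at chr11:44813801-44814450 with chr11:44815701-44816250, 1250 bp apart. A stretch of 166600 bp before chr11:44783651 held no region. The last region, chr11:44898801-44899300 (500 bp), overlapped an exon, and no further Ebf1 exon was listed to its right.

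Pax5 had 4 regions, more than 83.2% of protein-coding genes, spread over 140350 bp of chromosome 4. The gene runs on the minus strand, so its start lies at the higher coordinates. The region nearest to a start, chr4:44704251-44704850 (600 bp, 7 windows), was labelled promoter and intron, lay 245 bp from the next Pax5 exon downstream, and overlapped no Pax5 exon. It also overlapped an exon of 5730488B01Rik on the opposite strand. The 3 intronic regions stood far apart. They were chr4:44674751-44675450 and chr4:44624651-44625350, each 700 bp with 9 windows and wider than 87.4% of all regions, and chr4:44564501-44565000 with 500 bp. The nearest region of any gene was 28800 to 59650 bp away from each of the 4, against a median of 4500 bp over the table and 3950 bp over the 28 regions.

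Cd79a was the B cell gene with no overlapping region. The nearest regions on its sides were 10300 bp apart, and by the listed distances the whole gene, 4815 bp between its outer exon edges, lay in that gap. All 4 regions that name it flank it. One, chr7:24591451-24592000, lay 4806 bp before Cd79a and was also named for Rps19, a ribosomal protein gene on its other side. The other 3, at 679, 1779 and 4779 bp past Cd79a, all overlapped the promoter of Arhgef1, a signalling gene of leukocytes. The closest, chr7:24602301-24602600, was a single window of 300 bp, the smallest size in the table.

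Spi1 had 4 overlapping regions and 1 flanking region on chromosome 2. They lay on both sides of its most 5′ listed exon but not on it. The region chr2:90911101-90911650 (550 bp, 6 windows) had P alone, 1085 bp before that exon, and chr2:90913101-90913750 (650 bp, 8 windows) was labelled promoter and intron, 233 bp past it. Of the 1450 bases between them, 132 were left for the exon itself. The flanking region, chr2:90908551-90909150, lay 3585 bp before the exon. Further into the gene, chr2:90917801-90918200 was narrow, with 400 bp and 3 windows, and chr2:90931601-90932250 had 650 bp and 8 windows. All 5 named no gene other than Spi1.

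Cebpa had 1 region, chr7:34818351-34818900 (550 bp, 6 windows), over its promoter and an exon, with no Cebpa exon listed to its left. It also overlapped a promoter and intron of ENSMUSG00000108624 on the opposite strand. The next region of any kind was 49800 bp away. Of the C/EBP relatives counted, Cebpe, Cebpg and Cebpz had 1 overlapping region each with P. Cebpb had only a flanking one and Cebpd had none listed.

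Csf1r and Lyz2 were the members with no region at all, although regions were listed on both sides of each. Lyz2 and its close copy Lyz1, which also had none listed, lie between Yeats4 and Cpsf6 on chromosome 10, and both of these genes had a P region. The 138300 bp from the last Yeats4 region to the first Cpsf6 region held 3 regions, and only chr10:117065701-117066200 lay within 5000 bp of a gene's exon. Csf1r lies between Pdgfrb and Hmgxb3 on chromosome 18, and both had 3 overlapping regions. The 87700 bp between their nearest regions held 1 region, chr18:61224001-61224550 (550 bp, 6 windows), which named no gene. The other receptors of the same family, Kit, Flt3, Pdgfra and Pdgfrb, had 1, 7, 1 and 3 overlapping regions.

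Gata1, on the X chromosome, had 2 regions 13150 bp apart, both labelled promoter and exon. The gene runs on the minus strand. Region chrX:7844001-7844600 (600 bp, 7 windows) had no Gata1 exon listed to its right, so it overlapped the most 5′ exon within reach. The other, chrX:7830201-7830850 (650 bp, 8 windows), lay among the exons, with the next one 3156 bp upstream and 721 bp downstream. Of the relatives Gata2 to Gata6, Gata3, a T cell factor, had 6 overlapping regions and Gata4 had 2. Gata5 and Gata6 had none listed, and Gata2 was only flanked.

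Klf1 had 1 overlapping region, chr8:85629551-85630200 (650 bp, 8 windows), labelled promoter and exon. It lay past the beginning of the gene: another Klf1 exon ended 807 bp to its left and the next began 1193 bp to its right. The promoter label here thus came from a region inside the gene, and how far the label reaches past a start was not checked. All 11 Klf relatives examined had an overlapping region, led by Klf7 and Klf13 with 7 each. The Klf1 promoter held the letters CTTATC, the reverse complement of GATAAG, the core that GATA factors bind, beginning 81 bases before the start (chr8:84901889-84901918, GRCm38.p6, plus strand), in capitals here.
Klf1 stretch: ctttgcctgggtCTTATCagggaagacagc
GATAAG on either strand occurred in 6.92% of 21263 promoters of protein-coding genes, and in none of the other 7 promoter sequences of the members. The E box CAGNTG on either strand (CANCTG on the other), which E proteins bind, occurred in 48.6% of these promoters, and in those of Cd79a, Lyz2, Cebpa and Klf1, 1 match each. These are matches of letters and do not show binding.

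**Figure D2:**
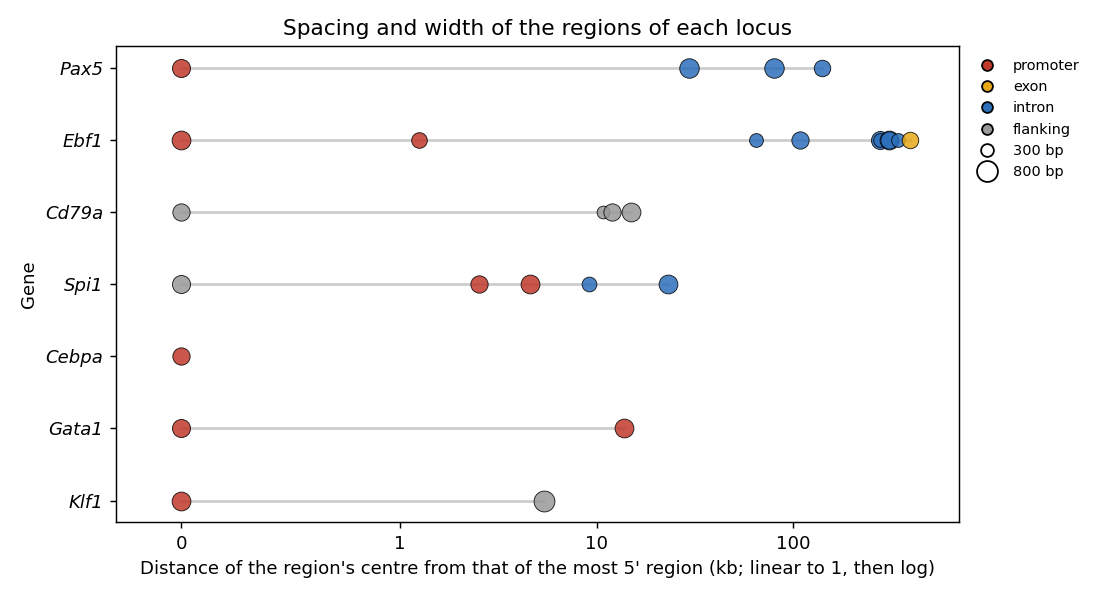
Regions of the 7 genes with any, by distance of the centre from that of the most 5′ region in the direction of transcription (x axis, kb, linear to 1 and logarithmic beyond). Circle area follows region width and colour follows class; Ebf1 and Pax5 regions spread over more than 100 kb, while those of Klf1 lie within 10 kb.

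Across the genome, P regions went with CpG-rich promoters, and the members spanned that scale. RefSeq promoter sequences were at hand for 7 of the 9 members and for 17492 protein-coding genes, taking the start richest in CpG where a gene had several. A P region was listed for 11.5% of genes with 0 to 2 CpG in the 300 bases, 30.9% with 3 to 5, 54.0% with 6 to 10, 81.5% with 11 to 20 and 89.7% with 21 or more. The median over genes was 15 CpG. Cebpa had 29 and Pax5 had 23, more than 81.1% and 68.3% of genes. Ebf1 had 17 at its richer start and 9 at the one shown. Cd79a, without a P region, had 8, and Lyz2 had 1. Gata1 and Klf1 had P regions with only 4 and 3 CpG. At Klf1 the region lay inside the gene, and at Gata1 1 of the 2 regions lay among the exons. The Pax5 P region overlapped no Pax5 exon. Because the builds differ, no P region was matched to the promoter sequence in which CpG were counted.

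**Figure D3:**
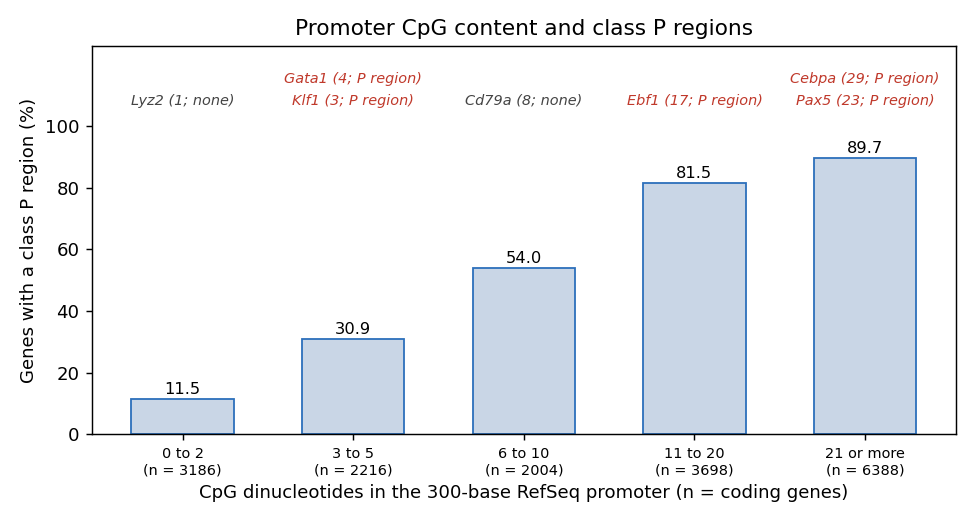
Share of protein-coding genes with a class P region (y axis, percent) by the number of CpG dinucleotides in the RefSeq promoter (x axis, n genes per bin), with the 7 members that have a sequence placed above their bin. The share was 11.5% in the lowest bin and 89.7% in the highest. P regions were not matched to these promoter sequences, as the builds differ.

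Wider lists of genes of the same lineages gave shares close to or below those of all genes. These lists include the members, and without them a region overlapped 27 of 49 genes and P was listed for 23. All lists, the T cell list too, were chosen with earlier results of these data known, so their contrasts are only described. A region overlapped 13 of 20 B cell genes, 11 of 20 myeloid genes and 9 of 18 erythroid genes (65%, 55% and 50%), against 14 of 20 genes of non-blood tissues, 20 of 20 T cell genes and 67.7% of all protein-coding genes. A P region was listed for 11, 10 and 8 of them, against 9 non-blood genes, 19 T cell genes and 61.7% of all genes. These counts depend on what is taken as P: where an exon of the gene must be overlapped too, they were 6, 6 and 5, against 5 non-blood and 17 T cell genes. With regions of at least 6 windows, P stood at 7 B cell, 5 myeloid and 6 erythroid genes, against 9 non-blood and 17 T cell genes. The B cell and myeloid counts, above the non-blood count in the main setting, were then below it. Genes were overlapped by a median of 1 region in the B cell and myeloid lists, 0.5 in the erythroid list and 5.5 in the T cell list, and 1 over all protein-coding genes. T cell genes, the defining markers of the labelled cells, ranged from Cd3e, a chain of the CD3 complex, with 1 region, to Bcl11b and Lef1, T lineage factors, with 19 each. The non-blood list was led by Pecam1, an adhesion molecule of endothelium that leukocytes carry too, with 16 regions, and Cdh1, epithelial cadherin, with 7. Ebf1, with 10, had more regions than 17 of the 20 T cell genes. Its regions spread over 391600 bp, however, and gene length was not taken into account, so the counts do not rank the loci by accessibility.

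**Figure D4:**
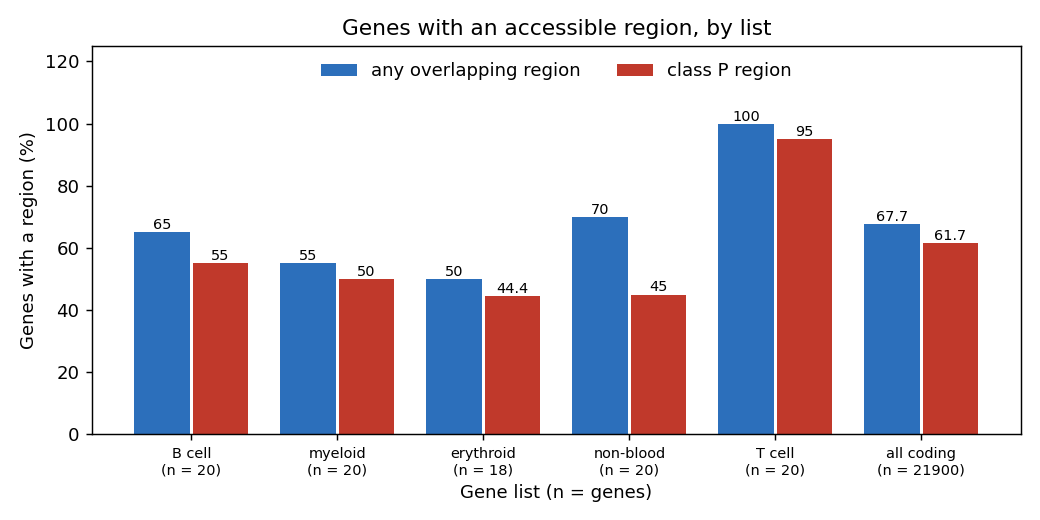
Share of genes (y axis, percent) with any overlapping region and with a class P region, by gene list (x axis, n genes). The T cell list reached 100% and 95%, and the B cell, myeloid and erythroid lists lay between 44.4% and 65%. The lists were chosen with earlier results of these data known.

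In the B cell list, Bank1, an adaptor of B cell receptor signalling, had 9 regions and came next to Ebf1. It was followed by Pax5 with 4, Blk, a B cell kinase, and Pou2af1, a coactivator of immunoglobulin genes, with 3 each, and Blnk, a linker of B cell receptor signalling, with 2. Genes without an overlapping region were Cd79a, Cd79b, Ms4a1, Igll1, Rag1, Fcer2a and Fcrla. The receptor chains Cd79a and Cd79b were thus both without one.

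In the myeloid list, Itgam, an integrin chain also found on other leukocytes, had 6 regions, Spi1 had 4 and Irf8, a factor of myeloid and lymphoid cells, had 2, both P. Those without an overlapping region were Csf1r, Lyz2, Csf3r, Adgre1, Cd14, Fcgr1, Ly6c2, S100a8 and Tyrobp. In the erythroid list Ank1, a membrane skeleton gene, had 5 regions, and Gata1, Tal1 and Nfe2, all transcription factors, had 2 each. None was listed over the globin genes Hbb-bt, Hbb-bs, Hba-a1 and Hba-a2, nor over Alas2, Slc4a1, Epb42 and Rhag, among others. Within each pair, Hbb and Hba, the globin genes are near-identical copies, where reads can be lost or split between them.

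Transcription regulators and other genes of these lists were also counted apart, as a description made after the values were seen. Leaving out the members, a region overlapped 8 of 8 regulators (among them Pou2af1, Spib, Cebpe, Irf8, Tal1, Nfe2 and Gfi1b) and 19 of 41 other genes. P was listed for 7 of 8 and 16 of 41. Over all protein-coding genes the shares were 67.7% overlapped and 61.7% with P. No share over all transcription regulators was computed, so the counts cannot be read as particular to these lineages. The non-blood list, with only 5 regulators, showed a smaller difference in overlap: 4 of 5 regulators and 10 of 15 other genes. For P its difference went the other way, with 1 of 5 and 8 of 15. Among chosen relatives of the members, a region overlapped 3 of 3 Ebf genes, 8 of 9 Ets-family genes and 11 of 11 Klf genes. It was 2 of 5 for Gata genes and 1 of 8 for Pax genes, Pax7. The Ets and Klf sets were picked and are not whole families, so these counts do not compare the families. In the B cell, myeloid and erythroid lists CpG counts moved with the division: without the members, the median was 8 over the 5 regulators with a sequence and 4 over the 30 other genes with one. In the T cell list both kinds were covered, 5 of 5 regulators and 15 of 15 other genes, and the 9 other genes with a sequence also had a median of 4 CpG. Among genes with 5 or fewer CpG, a P region was listed for 7 of 25 genes of the 3 lineages, 4 of 8 non-blood genes, 5 of 5 T cell genes and 19.5% of 5402 protein-coding genes. With 6 or more, the counts were 14 of 17, 2 of 6, 8 of 9 and 81.3% of 12090. The non-blood share was thus not higher with more CpG, unlike that of all genes, but it rests on few genes. The part of CpG content in the division was not tested.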

How the data were processed

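ATAC-seq of 18 mouse CD4 T cell samples was deposited by the authors as a single table of 395898 rows, the same 65983 regions (GRCm39) under 6 contrasts. Trim Galore, BWA, Picard and edgeR appear in the submitters' processing notes with no roles given. Per the file headers, a row holds the authors' log2 fold change, p-value and adjusted p-value, the region's width in bp and number of windows, and genes overlapped or flanking. How log2 fold changes were normalized and windows filtered is not stated there. The deposited log2 fold changes and p-values were checked for order and then set aside. No statistical test was run. Depth is unknown.

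Regions of the first contrast were searched for exact gene names. Distances are those listed, to the nearest exon. The reading of gene entries was tested on simulated data. RefSeq (GRCm38.p6) gave protein-coding symbols and promoter sequences; 98.9% of the 19399 table names that are not Ensembl IDs matched a RefSeq symbol, and all 141 list genes did. Genes named with values were the members, the genes their regions name, genes beside Csf1r and Lyz2, related genes, and up to 6 per list with most regions plus those with none, a few of which are not reported here. Members and lists were chosen with earlier results of these data known. Python 3.11.15, pandas 2.3.3 and numpy 2.4.6 were used.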

Additional observations from a re-analysis of the deposited data

How the results depend on the processing

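No paired analysis was possible because values of single samples are not part of the data analysed here, and for the same reason no replicate was left out. Taking the regions from any of the other 5 contrasts, or matching names without regard to case, changed no count. A promoter window around RefSeq starts was not run, since the builds differ. Of 154 values under 12 settings, 137 stayed within 1.5 times (medians: unchanged) and 17 moved. But 5 of the 12 settings were the other contrasts, whose regions are identical, so their values were fixed in advance. The 137 therefore overstate how stable the counts are.

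With regions of at least 2 windows, the median width of member regions became 600 bp and their median windows 7. With at least 6 windows these were 625 bp and 7.5, P regions were left at 7 B cell and 5 myeloid genes, and overlapping ones at 6 myeloid genes. Without regions that overlap another gene, 3 members kept a P region (Spi1, Gata1 and Klf1), the medians were 550 bp and 6 windows, P regions stood at 6 B cell and 6 myeloid genes, and overlapping ones at 7 myeloid genes. If P counts only where an exon is overlapped too, a setting chosen after seeing the data, 4 members had one, as had 6 B cell, 6 myeloid, 5 erythroid and 5 non-blood genes. The B cell, erythroid, T cell and non-blood counts of overlapping genes stayed within 1.5 times throughout. Absence from the list is limited by an unknown depth.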
